A study of Rattus norvegicus with 36 samples.

Results

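The comparison described here sets the lungs of Lewis rats at postnatal day 7 (PN7) against those of Fisher rats of the same age, gene by gene across the whole array. Its members were chosen by their labels: the 4 arrays labelled Lewis PN7 and the 4 labelled Fisher PN7, 8 of the 36 arrays of the series. The series asked how genetic background shapes gene expression in the postnatal lung, with asthma susceptibility in mind. It covers whole lung of 3 inbred strains (Brown Norway is the third) at PN1, PN7 and PN14, and a strain had 4 arrays at an age, save PN1, where Lewis had 3 and Brown Norway 5. The groups used here were labelled by strain and age alone, with no allele or agent named, and each array carried biotin-labelled cRNA made from total RNA of whole lung on an Illumina beadchip, on which each probe is read by many beads. The labels do not say that the arrays of a group came from separate animals, so the p-values below speak of the spread among these arrays alone, part of which may be technical.

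The rat lung at this age is in the phase of alveolarisation, when new septa divide the air spaces that were present at birth and cells of the septa, the capillaries and the epithelium multiply. Lewis and Fisher are inbred laboratory strains, and an inbred strain carries fixed alleles that can change the level of a transcript at every age. The PN7 differences are therefore set beside those at the other ages below. Whole-lung RNA holds every cell type of the organ, so a lower signal of a cell type's genes cannot be told apart between fewer cells of that type and less RNA in each of them.

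The 8 arrays fell into their labelled groups. Correlations over the tested probes lay between 0.9903 and 0.995 within Lewis PN7, between 0.9948 and 0.9974 within Fisher PN7 and between 0.9811 and 0.9898 across the strains, and all 8 arrays were nearest to the mean of their own group. The first principal component of the 8 arrays held 55.4% of the variance and put the Lewis arrays between -15.5 and -10.5 and the Fisher arrays between 9.6 and 14.7. The second held 14.5% and set Lewis replicate 3 (-15.5) apart from the other Lewis arrays (1.1 to 7.9). At a detection p under 0.01, an array detected between 9481 and 10183 probes, and the median probe was read by 40 to 43 beads. Lewis replicate 1 was hybridised on the slide that held all but 1 of the PN1 arrays, while the other 7 arrays shared a slide on which the Lewis arrays took sections A to C and the Fisher arrays sections D to G. Position on that slide and strain cannot be told apart. Of the 13 markers of lung cell types that were looked up, the 9 with a named probe (Sftpc, Sftpb, Aqp5, Pdpn, Ager, Scgb1a1, Scgb3a2, Tekt1 and Cdh5) were detected on 8 of 8 arrays. Outside the comparison, 2 arrays that share a strain, labelled Brown Norway PN1 (replicate number 5) and PN14 (replicate number 3), looked exchanged: either resembled the other's group. Both entered the shared estimate of the spread, so the main counts are also given without them. The array labelled PN1 was hybridised on the slide that held most of the PN14 arrays. Whether the slide had a part in its resemblance to them was not tested.

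Of 11339 tested probes, 1134 (10%) differed between the strains at PN7 at a limma adjusted p under 0.05. In Lewis 627 of them (5.53%) were higher and 507 (4.47%) lower, and 59 of the higher and 46 of the lower probes differed at least 2-fold. The 4 Lewis and 4 Fisher values did not overlap for 981 of the 1134, against 16.3% of all tested probes. Without that pair of Brown Norway arrays 1516 probes passed, 786 higher and 730 lower. A named gene stood behind 791 of the called probes and 343 were unnamed, among them several of the largest differences in either direction. How many probes pass depends on the scaling between arrays. Quantile normalisation gave the counts above, whereas scaling each array to its median gave 310 (160 higher, 150 lower) and scaling to the median of the probes detected on every array gave 462 (228 higher, 234 lower).

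**Figure D1:**
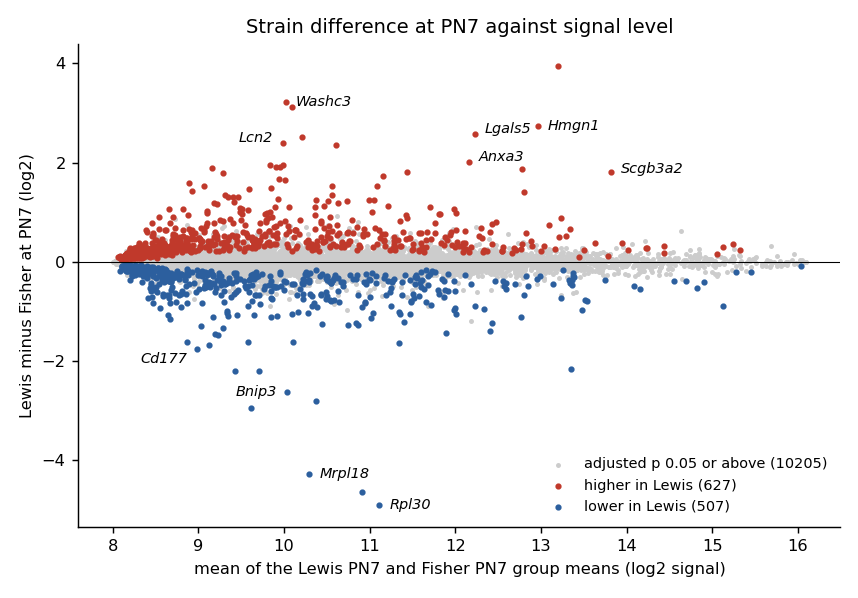
Each point is 1 of 11339 tested probes, with the mean of both PN7 group means on the x axis (log2 signal) and the Lewis minus Fisher difference on the y axis (log2). Red and blue points passed a limma adjusted p under 0.05 (627 higher and 507 lower in Lewis), and the largest named differences, Rpl30 and Mrpl18 below 0 and Washc3 and Hmgn1 above it, lie far outside the grey band of probes that did not pass.

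The other ages showed which strain differences were present throughout. At PN1 1159 probes (10.2%) and at PN14 1427 probes (12.6%) differed between Lewis and Fisher. Of the 1134 PN7 calls, 368 (32.5%) passed with the same sign at all 3 ages, as did 73 of those with at least a 2-fold difference. Conversely, 410 of the PN7 calls passed at neither PN1 nor PN14, and 120 were called at PN1 with the opposite sign. The departure of the PN7 difference from the mean of the PN1 and PN14 differences, tested in the same fit, passed for 527 probes (4.65%), with the PN7 difference above the mean of the other ages for 367 and below it for 160. Without the 2 Brown Norway arrays that looked exchanged 833 probes departed. The PN7 difference and the departure both passed for 314 probes, 241 of them higher in Lewis at PN7 and 73 lower. Tested against PN1 alone the PN7 difference departed for 471 probes, and against PN14 alone for 463. Only 165 probes passed both of these and the joint test, so a departure from the mean need not hold against each age.

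The gene lists were chosen with earlier results of these data known, which limits any rank among them. Among the 44 measured lists, cell cycle genes had the largest share of called genes in 1 direction. Of 64 listed genes 52 were measured, and 42 of the 52 were higher in Lewis while 0 were lower, against 5.48% higher and 4.23% lower among the 8063 genes tested with 1 probe each. At an unadjusted p under 0.05, limma counted 47 higher and 0 lower. The median difference of the list was 0.56 on the log2 scale, against -0.002 over all genes. In 36 of the 52 all 4 Lewis values lay above all 4 Fisher values, which held for 8.64% of all genes. Under median scaling 18 were higher, and under scaling to the median of the detected probes 27, with 0 lower in either.

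The mean over the 52 genes was 10.19, 10.22, 10.1 and 9.96 on Lewis PN7 replicates 1 to 4 and 9.53, 9.29, 9.88 and 9.48 on Fisher PN7 replicates 1 to 4 (cell cycle list, mean log2 signal). The groups did not overlap, Fisher replicate 3 stood highest of its group and replicate 2 lowest, and Lewis replicate 1, on the other slide, lay within the range of the other Lewis arrays. Leaving out Fisher replicate 2 left 34 genes higher and leaving out Fisher replicate 3 gave 47, with 0 lower in both cases. Fitted on the slide that held 7 of the 8 arrays alone, 31 were higher.

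**Figure D2:**
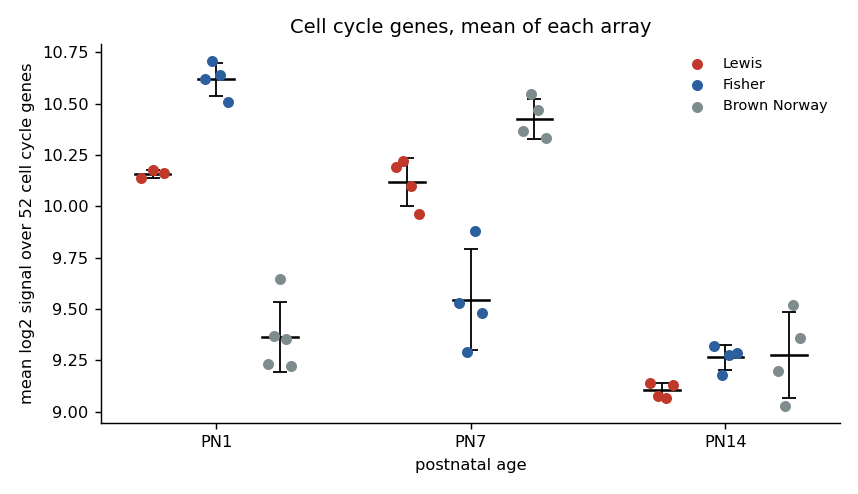
Mean log2 signal over the 52 measured cell cycle genes (y axis) on each of the 36 arrays by postnatal age (x axis), with points for arrays and a bar and whiskers for the mean and SD of each group. At PN7 the Lewis arrays (9.96 to 10.22) lie above the Fisher arrays (9.29 to 9.88) and below the Brown Norway arrays (10.33 to 10.54), whereas at PN1 the Fisher arrays stand above the Lewis arrays.

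The order of the strains in these genes was not the same at the other ages. At PN1 the cell cycle mean was 10.16 ± 0.02 (SD, n = 3) in Lewis and 10.62 ± 0.08 (n = 4) in Fisher, and 26 of the 52 genes were lower in Lewis and 0 higher (5.07% and 5.56% of all genes). At PN14 it was 9.1 ± 0.04 (n = 4) in Lewis and 9.26 ± 0.06 (n = 4) in Fisher, with 1 gene lower in Lewis and 0 higher (7.07% and 5.58% of all genes). Beside these stand the PN7 means of 10.12 ± 0.12 (n = 4) in Lewis and 9.54 ± 0.25 (n = 4) in Fisher. Brown Norway lungs had a mean of 10.43 ± 0.1 (n = 4) at PN7, and the median gene stood 0.87 above Fisher and 0.28 above Lewis there. The PN7 difference departed upward from the mean of the other ages in 47 of the 52 genes and downward in 0. Of all genes 4.66% departed, 3.27% upward and 1.39% downward. With scaling to the median of the detected probes 30 departed upward. Slides followed the ages apart from a few arrays, so a step between ages is also a step between slides, and only the strain differences within an age are read here.

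Cyclins, kinases and their regulators, which drive the passage from phase to phase, had 10 of 13 measured members higher in Lewis. Ccna2, the cyclin of S phase and early mitosis, read 10.77, 10.63, 10.54 and 10.29 on the Lewis arrays and 9.20, 8.86, 10 and 9.12 on the Fisher arrays. All Lewis arrays were above all Fisher arrays, with the highest Fisher value on replicate 3. The difference was 1.26 on the log2 scale (SE 0.19, limma adjusted p = 1.08e-05), against -0.89 at PN1 and -0.23 at PN14. Ccnb2, a mitotic cyclin, and Cdk1, the kinase it binds, were 1.06 and 0.97 higher, Cdc20, the activator of the anaphase-promoting complex, 0.84 higher, and Plk1, a mitotic kinase, 0.57 higher. The members that did not pass were Ube2c, a conjugating enzyme of the same complex (0.75, adjusted p = 0.0693), Cks1b, a subunit of cyclin-dependent kinases (0.48, adjusted p = 0.0924), and the phosphatase gene Cdc25b (-0.05, adjusted p = 0.889).

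Genes of the spindle, the kinetochore and the checkpoint had 13 of 16 members higher. Ttk, the kinase that holds anaphase until chromosomes are attached, read 10.06, 9.85, 9.84 and 9.43 on the Lewis arrays and 8.62, 8.41, 8.96 and 8.55 on the Fisher arrays. The groups did not overlap, and the log2 difference was 1.16 (SE 0.13, adjusted p = 4.55e-08). Kif22, a motor that binds chromosome arms, read 11.19, 11.18, 11.03 and 10.73 on the Lewis arrays and 9.82, 9.33, 10.59 and 9.90 on the Fisher arrays. It too was higher on every Lewis array, by 1.13 (SE 0.17, adjusted p = 2.2e-05). The kinetochore genes Ndc80 and Spc25 were 0.65 and 0.98 higher, the checkpoint kinase genes Bub1 and Bub1b 0.46 and 0.53 higher, and the spindle assembly gene Tpx2 1.10 higher. Aurkb, the kinase of the chromosomal passenger complex, stood at 0.01 (adjusted p = 0.994), although Cdca8 of the same complex was 0.79 higher. Aurkb read 11.58 ± 0.1 in Lewis and 11.58 ± 0.25 in Fisher (SD, n = 4 each).

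All 5 measured genes of cytokinesis, the division of the cell body, were higher. Ect2, which is needed to form the cleavage furrow, read 9.70, 9.71, 9.97 and 9.43 on the Lewis arrays and 8.88, 8.60, 9.27 and 8.76 on the Fisher arrays. It did not overlap between the strains and was 0.83 higher (SE 0.11, adjusted p = 2.64e-06), against -0.89 at PN1. Prc1, which bundles the microtubules of the midzone, was 1.12 higher, and the motor genes Kif20a and Kif23 0.96 and 0.95 higher. Racgap1, the partner of Kif23, was 0.47 higher.

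DNA replication and nucleotide supply had 12 of 16 members higher. The median of this group was 0.32, against 0.82 for cyclins and kinases, 0.62 for the spindle group and 0.95 for cytokinesis. Dim probes give smaller log2 differences in this processing, such as Mcm5 (Fisher mean 8.41) here and Mad2l1 (8.19) in the spindle group. Whether signal level had a part in this order was not tested. Rrm2, the regulatory subunit of ribonucleotide reductase, read 11.60, 11.82, 11.84 and 11.22 on the Lewis arrays and 10.37, 9.91, 11.06 and 10.12 on the Fisher arrays. Its Lewis values lay above the Fisher values on all arrays, and the difference was 1.26 (SE 0.29, adjusted p = 0.00357). The replicative helicase subunits Mcm2 to Mcm7 were all higher, by 0.72 for Mcm2, 0.61 for Mcm6 and 0.30 for Mcm5, and the sliding clamp gene Pcna by 0.38 and Tyms, the thymidylate synthase gene, by 0.45. Ccne2, a cyclin of the entry into S phase, was 0.30 higher, while its relative Ccne1, near background, stood at 0.01 (adjusted p = 0.906). Mki67, the gene of the proliferation antigen Ki-67, had a dim probe that read 8.54, 8.60, 8.70 and 8.53 on the Lewis arrays and 8.36, 8.31, 8.52 and 8.33 on the Fisher arrays. Its values did not overlap either, at a difference of 0.21 (SE 0.05, adjusted p = 0.00243). The calls of Rrm2 and Mki67 ended under median scaling (limma adjusted p = 0.0606 and 0.226). That scaling left 18 cell cycle genes called higher, against 42 in the main fit, so many others lost their calls too. Which of them did so was followed only for genes chosen by the naming rule given with the processing. The roles were assigned to the listed genes after their values had been seen.

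**Figure D3:**
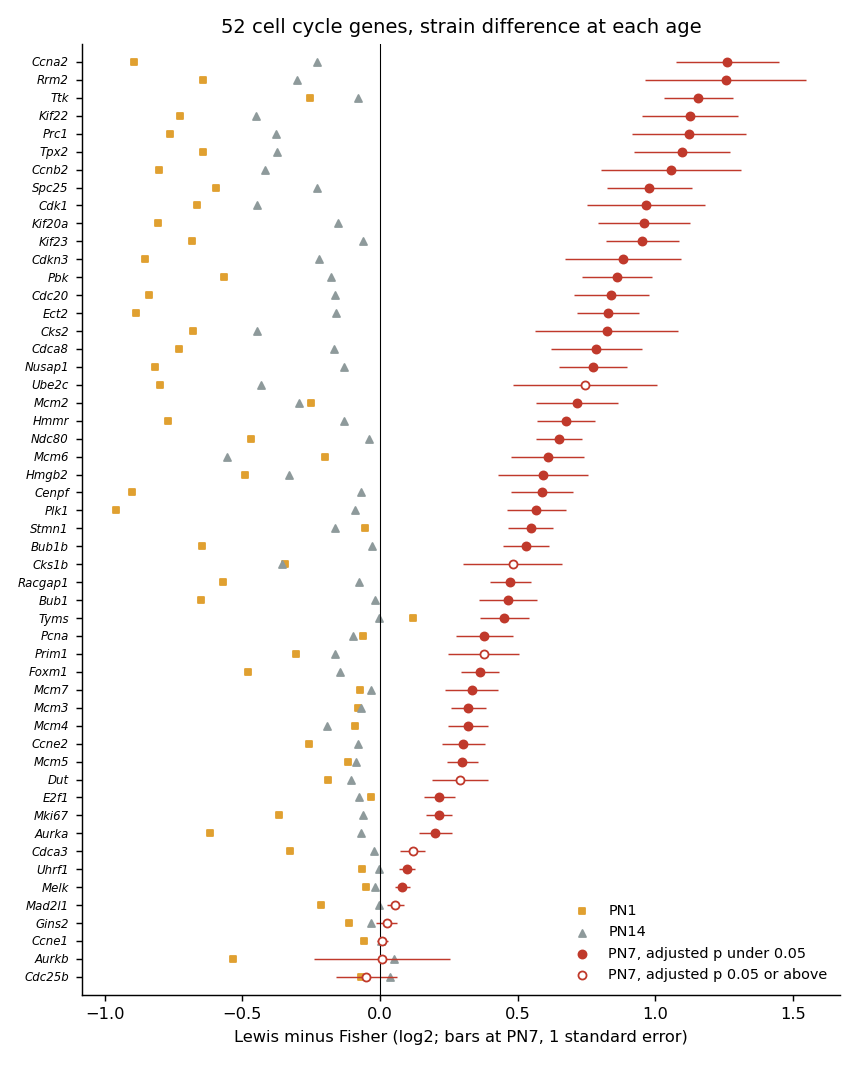
Lewis minus Fisher difference (x axis, log2) of the 52 measured cell cycle genes (y axis) at PN1 (squares), PN7 (circles with 1 standard error) and PN14 (triangles). Filled circles, 42 of 52, passed a limma adjusted p under 0.05 at PN7 and all lie above 0, while most of the squares and triangles lie below 0.

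The 8 named genes with the smallest adjusted p for a departure of PN7 from the other ages, chosen for that p, were Kif15, Ect2, Iqgap3, Ncapd3, Cenpt, Ndc80, Hmmr and Racgap1. Of these, Kif15, Iqgap3, Ncapd3 and Cenpt were not on the cell cycle list. Kif15 is a spindle motor, Ncapd3 a condensin subunit, Cenpt a kinetochore anchor, Iqgap3 a scaffold of the actin cytoskeleton and Hmmr a spindle-associated hyaluronan receptor. Kif15 was 0.43 higher in Lewis at PN7, -0.64 at PN1 and -0.06 at PN14 (adjusted p of the departure = 4.99e-07). The 8 differences at PN7 lay between 0.32 (Iqgap3) and 0.83 (Ect2). In each of the 8 genes the 4 Lewis values lay above the 4 Fisher values, against 8.64% of all genes. The departure is computed from the same PN7 arrays, so a choice by its p favours such separation. The PN7 calls of Kif15, Iqgap3, Ncapd3 and Cenpt ended under median scaling. In the deposited log2 values, which were background-corrected otherwise, Kif15, Iqgap3, Cenpt, Ndc80 and Racgap1 stood at 0.98, 1.00, 0.97, 1.28 and 0.96.

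Many promoters of such genes carry the CCAAT box, bound by NF-Y, and the cell cycle homology region, and those of replication genes carry E2F sites. Such words are short and frequent by themselves. The 200 bases before the start of the 4 cell cycle genes with the largest PN7 differences among those matched to a promoter are shown because these genes moved together. They come from RefSeq, build GRCr8, which is a Brown Norway genome, so they show neither the Lewis nor the Fisher sequence. Capitals mark the word CCAAT, the word TTTGAA of the cell cycle homology region, and the E2F words TTTCCCGC, TTTCGCGC, TTTGCCGC and TTTGGCGC on either strand. They lie at chr8:93634439-93634638 (plus strand) for Ttk, at chr1:191080879-191081078 (minus strand) for Kif22, at chr1:143659281-143659480 (plus strand) for Prc1 and at chr8:79981659-79981858 (minus strand) for Ccnb2.
Ttk: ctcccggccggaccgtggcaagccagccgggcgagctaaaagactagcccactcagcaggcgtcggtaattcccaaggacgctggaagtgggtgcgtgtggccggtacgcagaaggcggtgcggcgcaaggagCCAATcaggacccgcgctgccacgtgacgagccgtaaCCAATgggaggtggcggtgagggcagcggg
Kif22: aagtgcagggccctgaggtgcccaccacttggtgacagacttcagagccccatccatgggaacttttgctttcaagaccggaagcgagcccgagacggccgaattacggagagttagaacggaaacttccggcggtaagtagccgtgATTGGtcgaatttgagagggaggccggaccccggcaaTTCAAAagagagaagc
Prc1: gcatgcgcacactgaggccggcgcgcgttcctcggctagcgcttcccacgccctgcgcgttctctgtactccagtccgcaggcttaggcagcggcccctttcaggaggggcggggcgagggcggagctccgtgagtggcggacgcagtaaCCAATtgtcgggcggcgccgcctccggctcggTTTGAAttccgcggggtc
Ccnb2: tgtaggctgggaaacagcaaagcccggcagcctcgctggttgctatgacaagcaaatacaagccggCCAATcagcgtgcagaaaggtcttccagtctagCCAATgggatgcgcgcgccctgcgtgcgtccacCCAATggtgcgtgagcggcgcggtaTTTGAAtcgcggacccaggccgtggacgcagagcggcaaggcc

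The Ccnb2 window holds 3 CCAAT words and 1 TTTGAA, those of Kif22 and Prc1 hold 1 of each, and that of Ttk holds 2 CCAAT words and 0 TTTGAA. An E2F word was found in 0 of these 4. Of the 52 measured cell cycle genes 41 were matched to a promoter, and CCAAT was present in 30 of the 41 (73.2%), against 29.2% of 33469 promoter windows of the same length. TTTGAA was present in 16 (39%) against 12.6%, and an E2F word in 7 (17.1%) against 1.44%. The list holds cell cycle genes by choice, so these shares describe the list and not the strain difference. The 2 sets are also unlike: a cell cycle gene enters with 1 window, whereas the 33469 windows take in every promoter entry, whether or not its gene was measured here. No word lies inside another, although neighbouring words can share bases.

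Several of the largest differences had the same direction at all 3 ages. Washc3, a subunit of the WASH complex that sorts endosomes, read 11.76, 11.75, 11.33 and 11.69 on the Lewis arrays and 8.31, 8.35, 8.44 and 8.54 on the Fisher arrays. Lewis replicate 3 was the lowest of its group, and no Lewis value came near the Fisher range. The difference was 3.22 on the log2 scale (SE 0.09, 9.34-fold, adjusted p = 2.65e-22), beside 3.58 at PN1 and 3.38 at PN14. Hmgn1, a nucleosome-binding protein, was 2.74 higher (SE 0.15), Cd2bp2, a protein of the U5 spliceosomal particle, 2.36 higher, and Socs5, a suppressor of cytokine signalling, 1.95 higher. Rab3d, a small GTPase of secretory vesicles, was 1.81 higher, Lrrc42, a leucine-rich repeat protein, 1.91 higher, and the organic anion transporter gene Slco1a5 1.80 higher. For these 6 genes the PN1 and PN14 differences had the same sign and the departure did not pass. Their Lewis and Fisher values did not overlap, which was a condition for choosing the genes of largest difference, here and below. Brown Norway PN7 lungs read close to Lewis for Washc3 (11.58), Hmgn1 (14.56) and Cd2bp2 (11.95), where the Lewis means were 11.63, 14.33 and 11.79.

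Genes lower in Lewis at every age were led by a ribosomal gene. Rpl30, a protein of the large cytoplasmic ribosomal subunit, read 8.24, 8.59, 8.80 and 9.01 on the Lewis arrays and 13.50, 13.56, 13.62 and 13.53 on the Fisher arrays. The Lewis values lay near the low end of the signal range, far below all Fisher values, at a difference of -4.89 (SE 0.28, 29.7-fold, adjusted p = 2.49e-14). Mrpl18, of the mitochondrial ribosome, was -4.27 (SE 0.09) and was detected on 2 of 4 Lewis arrays. Bnip3, a mitophagy receptor induced by hypoxia, read 8.65, 8.68, 8.72 and 8.86 on the Lewis arrays and 11.26, 11.46, 11.40 and 11.30 on the Fisher arrays. No values overlapped, and the difference of -2.63 (SE 0.17, adjusted p = 6.45e-13) stood beside -2.99 at PN1 and -2.15 at PN14. Zcchc9, a zinc-knuckle protein, was at -2.20, Bcas2, a spliceosome subunit, at -1.63, and Mfhas1 at -1.44. Nqo2, a quinone oxidoreductase, and Umps, the last enzyme of UMP synthesis, were at -1.33 and -1.30. Brown Norway PN7 lungs resembled Fisher in Rpl30 (13.65), Mrpl18 (12.59), Bnip3 (11.17) and Zcchc9 (11.26), and Lewis in Mfhas1 (8.45). Sec14l3, a lipid transfer protein, differed by -1.62 (SE 0.40, adjusted p = 0.00646) at PN7, while its differences of -0.99 at PN1 and -0.43 at PN14 did not pass. Over all 1134 called probes the Brown Norway PN7 mean was nearer to Lewis in 60.2%, against 50.3% of all tested probes. Each of these genes rests on 1 probe, and the strains' sequences under the probes were not used here, so the part of a base difference under a probe was not tested.

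Of the called probes, 65 were detected on all 4 arrays of 1 strain and on 0 of the other, so their folds are lower bounds. Each bound sets the mean of the strain that detected the probe against the mean, over the arrays of the other strain, of the higher of the probe's own signal and the lowest signal of a detected probe. Odc1, the ornithine decarboxylase that starts polyamine synthesis, read 9.73, 9.80, 9.76 and 9.46 on the Lewis arrays and 8.07, 8.06, 8.12 and 8.14 on the Fisher arrays. It was not detected in Fisher and at least 2.94-fold higher in Lewis (adjusted p = 8.42e-06). Sorbs2, an adaptor of the cytoskeleton, was at least 2.08-fold higher and the class I histocompatibility gene RT1-CE5 at least 1.65-fold higher. Ptgr2, a prostaglandin reductase, Ccdc77 and Vnn3 had bounds of 1.3, 1.22 and 1.2. In the other direction, Klkb1, plasma prekallikrein, read 8.12, 8.08, 8.09 and 8.12 on the Lewis arrays and 9.27, 9.21, 9.20 and 9.30 on the Fisher arrays. It was at least 2.17-fold lower in Lewis (adjusted p = 9.87e-15), and Gnpda2, a glucosamine phosphate deaminase, and Plcxd3 at least 1.86-fold and 1.61-fold lower. RT1-S2, Commd6 and Cntn1 had bounds of 1.2, 1.18 and 1.09. Sorbs2 and RT1-CE5 lost their calls under median scaling, and under scaling to the median of the detected probes so did Ptgr2, Ccdc77, Vnn3, RT1-S2, Commd6 and Cntn1. RT1 genes belong to a family of close copies, and a probe for a member can also read its relatives. In the deposited log2 values these dim probes differed more, with Odc1 at 4.73, RT1-CE5 at 4.27, Gnpda2 at -4.18 and Klkb1 at -4.21.

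**Figure D4:**
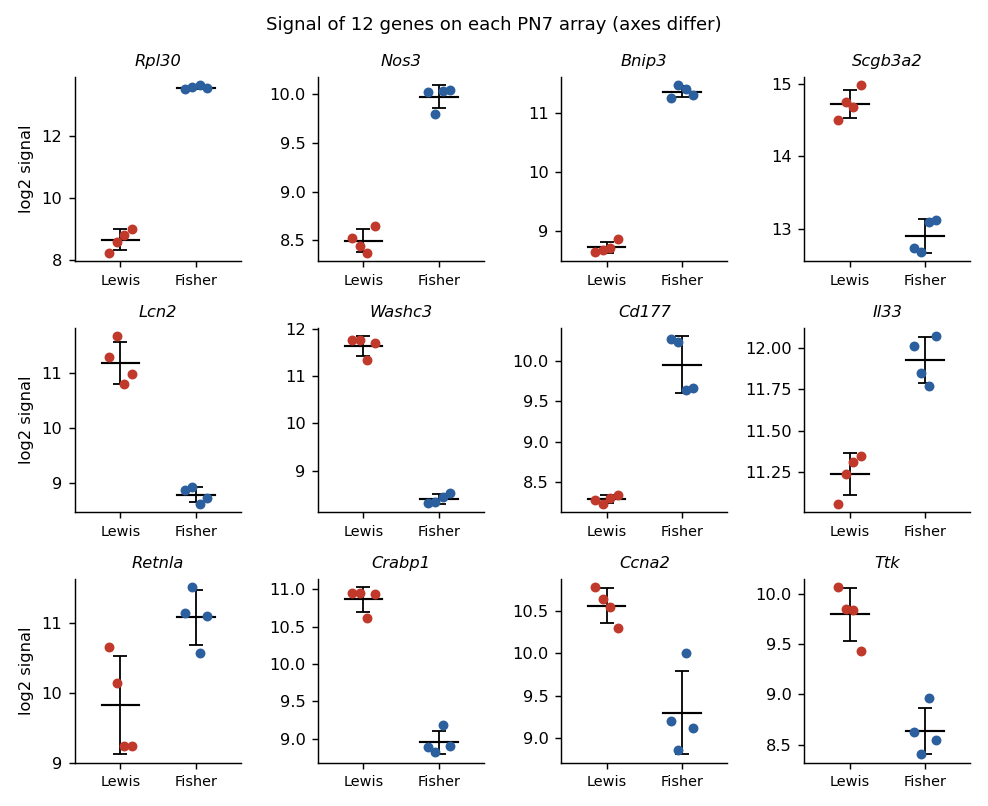
Log2 signal (y axis, a separate scale for each gene) of 12 genes on the 4 Lewis and the 4 Fisher PN7 arrays, with points for arrays and a bar and whiskers for the mean and SD. The strains do not overlap in 11 of the 12, and in Retnla Lewis replicate 1 (10.65) reaches above the lowest Fisher value (10.56). Several of the 12, such as Rpl30 and Washc3, were chosen among probes without overlap.

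In the airway and alveolar epithelium single genes differed. All list counts from here on stand beside 5.48% of all genes higher and 4.23% lower, and at an unadjusted p under 0.05 beside 846 higher and 810 lower of the 8063 genes. Of 11 club cell and secretory airway genes 1 was higher and 1 lower. Scgb3a2, a secretoglobin of club cells, read 14.51, 14.74, 14.68 and 14.98 on the Lewis arrays and 12.73, 12.68, 13.10 and 13.12 on the Fisher arrays. It was higher on every Lewis array, by 1.82 (SE 0.17, 3.53-fold, adjusted p = 1.57e-09), with 2.31 at PN1 and 2.03 at PN14. The main club cell product Scgb1a1 stood near the top of the signal range, with 16.01, 16.04, 16.04 and 16.04 on the Lewis arrays and 16.04, 16.03, 16.03 and 15.93 on the Fisher arrays, and did not pass (0.03, SE 0.03, adjusted p = 0.611). Pigr, the receptor that carries antibody across epithelium, was lower in Lewis at PN7 (-0.50, adjusted p = 0.00188, detected on 3 of 4 Lewis arrays) and stood at 0.75 at PN14 (adjusted p of the departure = 0.000125). Among 11 surfactant and alveolar type II genes 0 were called by limma in either direction, with 1 at an unadjusted p under 0.05. Sftpc, a surfactant protein of type II cells, read 14.31, 14.14, 13.94 and 14.09 on the Lewis arrays and 14.11, 14.07, 14.04 and 14.11 on the Fisher arrays and differed by 0.04 (SE 0.11). Sftpb differed by 0.12 (SE 0.18), and the values of both genes overlapped between the strains. Of 17 alveolar type I genes 0 were higher and 1 was lower, the keratin gene Krt8 (-0.48, adjusted p = 0.0102), with 1 in each direction at an unadjusted p under 0.05. Pigr and Krt8 lost their calls under median scaling. Aqp5, the water channel of type I cells, read 10.35, 10.38, 10.09 and 10.50 on the Lewis arrays and 10.16, 9.78, 9.65 and 9.78 on the Fisher arrays, and its difference of 0.49 (SE 0.28) did not pass (adjusted p = 0.346), though it passed without the same pair of Brown Norway arrays (adjusted p = 0.014) and on the arrays of the shared slide alone (adjusted p = 0.0308). Of 15 ciliated airway genes 0 were called and 2 had an unadjusted p under 0.05.

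Of 21 endothelial genes measured, 3 were lower and 1 higher in Lewis (4.23% and 5.48% of all genes). Nos3, the endothelial nitric oxide synthase, read 8.52, 8.45, 8.37 and 8.65 on the Lewis arrays and 10.02, 9.80, 10.03 and 10.04 on the Fisher arrays. The strains did not overlap, and the difference of -1.47 (SE 0.08, 2.78-fold, adjusted p = 3.23e-14) stood beside -1.43 at PN1 and -1.31 at PN14 (adjusted p of the departure = 0.707). Brown Norway lungs, at 8.59, were near the Lewis level. Ace, the angiotensin-converting enzyme of lung capillaries, was -0.73 (SE 0.18, adjusted p = 0.00667) and Tek, the angiopoietin receptor Tie2, -0.51 (SE 0.11, adjusted p = 0.0011). Both departed downward from the other ages (adjusted p = 0.0395 and 0.00232), with PN14 differences of 0.12 and 0.27. Egfl7, a secreted endothelial factor, was 0.59 higher (SE 0.19, adjusted p = 0.0451) and lost its call under 12 of the 20 alternative settings, among them leaving out any array but Lewis replicate 4 (adjusted p between 0.0512 and 0.344). Cdh5, the cadherin of endothelial junctions, did not pass (log2 difference -0.05, adjusted p = 0.873). Tek and Egfl7 lost their calls under median scaling.

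Matrix genes that passed were lower in Lewis. Of 27 genes of fibrillar collagen and interstitial matrix 3 were lower and 0 higher (4.23% and 5.48% of all genes), with 8 lower and 0 higher at an unadjusted p under 0.05 in limma (810 and 846 of all 8063 genes). Timp1, an inhibitor of matrix metalloproteinases, read 11.96, 11.91, 11.42 and 11.85 on the Lewis arrays and 12.70, 12.70, 12.72 and 12.59 on the Fisher arrays. It was lower on every Lewis array (-0.89, SE 0.13, adjusted p = 8.97e-06), yet by less than at PN1 (-1.52) and PN14 (-1.83), and the departure passed (adjusted p = 0.00233). The collagen hydroxylase genes P4ha1 and Plod1 were -0.38 and -0.21. Of 15 elastic fibre genes 2 were lower, the latent TGF-beta binding protein Ltbp1 (-0.38) and the fibulin Fbln1 (-0.36), and 0 higher, with 2 lower and 0 higher at an unadjusted p under 0.05. Eln, the elastin gene, differed by -0.05 (SE 0.30, adjusted p = 0.962), with overlapping values. Leaving out any array but Fisher replicate 3 ended the Ltbp1 call, leaving out Lewis replicate 4 or Fisher replicate 1 ended that of Plod1, and under median scaling those of P4ha1, Plod1, Ltbp1 and Fbln1 ended.

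Among 54 genes of lung growth factor signalling 3 were lower and 1 higher (4.23% and 5.48% of all genes). Wnt5a, a ligand that shapes the distal lung, read 10, 10.08, 9.66 and 9.78 on the Lewis arrays and 10.82, 10.87, 10.72 and 10.66 on the Fisher arrays. It was lower on all Lewis arrays (-0.89, SE 0.27, adjusted p = 0.0274). Bmp4, a ligand of the distal epithelium and mesenchyme, was -0.49 (adjusted p = 0.0181) and stood at 0.32 at PN1. Nrg1, the neuregulin ligand of ErbB receptors and the other of the 3 lower genes, was near background. It was detected on 0 Lewis arrays and on Fisher replicate 4 alone (8.32, against 8.13 to 8.14 on the other Fisher arrays), so no fold is given. Shh, the hedgehog ligand of the epithelium, was 0.22 higher (adjusted p = 0.00131). The median of the list was 0.003, close to that of all genes. The Wnt5a call ended without Lewis replicate 3 or 4 or Fisher replicate 1 or 2, and also without background correction, without the filter on detection and in the deposited log2 values (adjusted p between 0.0501 and 0.102 over these and median scaling). That of Bmp4 ended without Lewis replicate 3 or Fisher replicate 2 or 4. Under median scaling the calls of Wnt5a, Bmp4 and Shh ended, and on the slide shared by 7 of the arrays that of Nrg1.

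Type 2 immunity, the arm of the response known from allergy and asthma, showed lower single genes in Lewis. Of 16 type 2 immune response genes 4 were lower and 0 higher (4.23% and 5.48% of all genes), with 6 lower and 1 higher at an unadjusted p under 0.05 (810 and 846 of all 8063 genes). Il33, an alarmin of barrier cells, read 11.06, 11.24, 11.31 and 11.35 on the Lewis arrays and 12.01, 11.85, 11.77 and 12.07 on the Fisher arrays. The strains did not overlap, and the difference was -0.69 (SE 0.19, adjusted p = 0.0172), against 0.66 at PN1 and 0.13 at PN14 (adjusted p of the departure = 0.00491). The Il33 call ended without Lewis replicate 1, without Fisher replicate 1 or without Fisher replicate 4, and under median scaling (adjusted p between 0.0515 and 0.0955). Retnla, a resistin-like protein of alternatively activated macrophages and epithelium, read 10.65, 10.13, 9.24 and 9.24 on the Lewis arrays and 11.13, 11.50, 10.56 and 11.09 on the Fisher arrays. Lewis replicate 1 lay within the Fisher range and replicates 3 and 4 far below it, at a difference of -1.25 (SE 0.28, adjusted p = 0.00215; adjusted p = 0.0709 when only the 8 arrays were fitted). It departed downward from the other ages, where it was 0.20 and 0.76. Stat6, the transcription factor of the interleukin-4 receptor, was -0.54 with 3 of 4 Lewis arrays detecting it, and the arginase gene Arg1 -0.40, both with a difference of the same sign at PN1 (-0.70 and -0.51), and the Arg1 call ended under median scaling. Under scaling to the median of the detected probes both calls ended. The interleukin genes Il4 and Il13, which drive that response, were above background on 0 of 36 arrays.

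Of 20 human asthma susceptibility genes measured, 2 were higher and 3 lower. The glutathione transferases Gstm1 and Gstt1 were 0.67 and 0.34 higher, and besides Il33 the zona pellucida binding protein gene Zpbp2 (-0.26) and the prostaglandin E receptor Ptger3 were lower. Ptger3 was detected on 0 Lewis arrays and 4 Fisher arrays and was at least 1.1-fold lower. Among 18 airway contraction receptors 0 were higher and 2 lower, Ptger3 and the adenosine receptor gene Adora2a (-0.74, SE 0.19, adjusted p = 0.00936), with 3 lower and 2 higher at an unadjusted p under 0.05. Under median scaling the calls of Gstm1, Gstt1, Zpbp2 and Adora2a ended, that of Adora2a also ended without Fisher replicate 2, and that of Ptger3 ended under scaling to the median of the detected probes.

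Innate immune genes differed in both directions. Lcn2, a siderophore-binding protein of neutrophils and epithelium, read 11.30, 11.67, 10.80 and 10.99 on the Lewis arrays and 8.87, 8.93, 8.63 and 8.73 on the Fisher arrays. It was higher on every Lewis array, by 2.40 (SE 0.40, 5.28-fold, adjusted p = 7.85e-05). Cd177, a surface glycoprotein of neutrophils, read 8.27, 8.23, 8.29 and 8.34 on the Lewis arrays and 10.28, 10.24, 9.65 and 9.66 on the Fisher arrays. Fisher replicates 1 and 2 stood above replicates 3 and 4, and no Lewis value came near them. Its difference of -1.68 (SE 0.17, adjusted p = 2.09e-08) departed from -0.59 at PN1 and -0.13 at PN14 (adjusted p = 0.00017). Slpi, a secreted protease inhibitor, was -1.11 (adjusted p = 0.00399). Of 16 neutrophil genes 1 was higher and 2 lower, with array means from 8.84 to 8.93 in Lewis and 8.8 to 8.86 in Fisher.

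Of 35 macrophage and monocyte genes 5 were higher and 3 lower (5.48% and 4.23% of all genes). The Fc receptor gene Fcgr3a and the beta-glucan receptor gene Clec7a were 0.90 and 0.79 higher. The cathepsin gene Ctsk and the chemokine gene Ccl6 were -0.76 and -0.67. Their calls ended under median scaling and without single arrays: Fcgr3a without Lewis replicate 1 or 4 or Fisher replicate 1, Clec7a without Lewis replicate 3 or Fisher replicate 1, Ctsk without Lewis replicate 3 or 4 or Fisher replicate 3, and Ccl6 without Fisher replicate 2 or 4. Of 27 interferon response genes 5 were lower and 1 higher (4.23% and 5.48% of all genes), and 12 lower and 1 higher at an unadjusted p under 0.05 (810 and 846 of all 8063 genes). Ifi44 read 9.53, 9.35, 9.80 and 9.57 on the Lewis arrays and 10.68, 10.63, 10.48 and 10.67 on the Fisher arrays. No values overlapped, at a difference of -1.05 (SE 0.13, adjusted p = 4.36e-07), and Ifi27 was -0.76 and the antiviral GTPase gene Mx2 -0.29, while the membrane protein gene Ifitm1 was 0.90 higher. Under median scaling the calls of Mx2 and Ifitm1 ended, and that of Mx2 also without Fisher replicate 1. Of 20 class I presentation genes 1 was higher (RT1-CE5) and 1 lower (RT1-S3, -1.04, SE 0.12, adjusted p = 3.42e-07).

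Genes of oxidant defence and single genes of the retinoid pathway differed in both directions. Of 45 oxidant defence and xenobiotic genes 6 were higher and 6 lower, against 5.48% and 4.23% of all genes, and 6 departed downward from the other ages, against 1.39% of all genes. Sult1a1, a phenol sulfotransferase, read 9.78, 10.13, 10.36 and 10.64 on the Lewis arrays and 11.55, 11.48, 11.41 and 11.57 on the Fisher arrays. It was lower on every Lewis array than on any Fisher array, at a difference of -1.28 (SE 0.18, adjusted p = 7.07e-06) against -0.71 and -0.13 at PN1 and PN14 (adjusted p of the departure = 0.0222). Aox1, an aldehyde oxidase, was -0.84 at PN7, -0.26 at PN1 and 0.06 at PN14. The glutathione transferase Gstt2 was -0.69 at PN7 and 0.17 at PN14, and it was also lower in Lewis at PN1 (-0.46, limma adjusted p = 0.0243). Txnrd1, the cytosolic thioredoxin reductase, was 1.02 higher (SE 0.06, adjusted p = 1.8e-13) and did not depart. Of 16 retinoid pathway genes 1 was higher and 1 lower, about the share of all genes. Crabp1, a cytosolic retinoic acid binding protein, read 10.95, 10.95, 10.62 and 10.94 on the Lewis arrays and 8.89, 8.82, 9.18 and 8.90 on the Fisher arrays. It was 1.91 higher in Lewis (SE 0.20, adjusted p = 2.39e-08), beside 1.26 at PN1 and -0.05 at PN14 (adjusted p of the departure = 0.00104), and Brown Norway read 11.15. Cyp26a1, the hydroxylase that breaks down retinoic acid, was -0.24, with 1 of 4 Lewis arrays detecting it. Anxa3, an annexin, read 13.16, 13.04, 13.01 and 13.46 on the Lewis arrays and 11.03, 11.11, 11.13 and 11.31 on the Fisher arrays. It was higher in Lewis at each age, by 2.02 at PN7 against 1.05 and 1.53, and the departure passed (adjusted p = 0.00491).

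Genes of protein synthesis and energy metabolism moved in few members. Of 61 cytosolic ribosomal protein genes 1 was higher and 3 lower. Rpl6, of the large subunit, was -0.88 (SE 0.04, adjusted p = 4.37e-17) and Rpl17 0.25 higher. Of 55 mitochondrial ribosomal protein genes 4 were higher and 3 lower, with Mrpl17 1.54 and Mrpl4 1.11 higher and Mrpl50 -0.60. Of 56 respiratory chain subunits 1 was higher, Uqcrc2 of complex III (0.35), and 0 lower, with 1 higher and 2 lower at an unadjusted p under 0.05. Of 33 proteasome genes 1 was higher (Psmc1, 0.12) and 0 lower, with 1 in each direction at an unadjusted p under 0.05. Hspa5, the chaperone of the endoplasmic reticulum, read 14.36, 14.24, 14.48 and 14.34 on the Lewis arrays and 14.65, 14.98, 14.66 and 14.69 on the Fisher arrays. It was lower in Lewis at PN7 (-0.39, adjusted p = 0.00998) and 0.91 higher at PN1 (adjusted p of the departure = 8.76e-05). Of 12 heat shock and chaperone genes 1 was lower and 0 higher at PN7, with a median of -0.071. At PN1 6 of them were higher in Lewis and 0 lower (5.56% and 5.07% of all genes), with a median of 0.423. Downward departures passed for 5, against 1.39% of all genes, and so go with the PN1 difference as well as with the PN7 values. Rpl17, Uqcrc2, Psmc1 and Hspa5 lost their calls under median scaling, Hspa5 also without Fisher replicate 2, and Psmc1 under 13 of the 20 alternative settings.

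**Figure D5:**
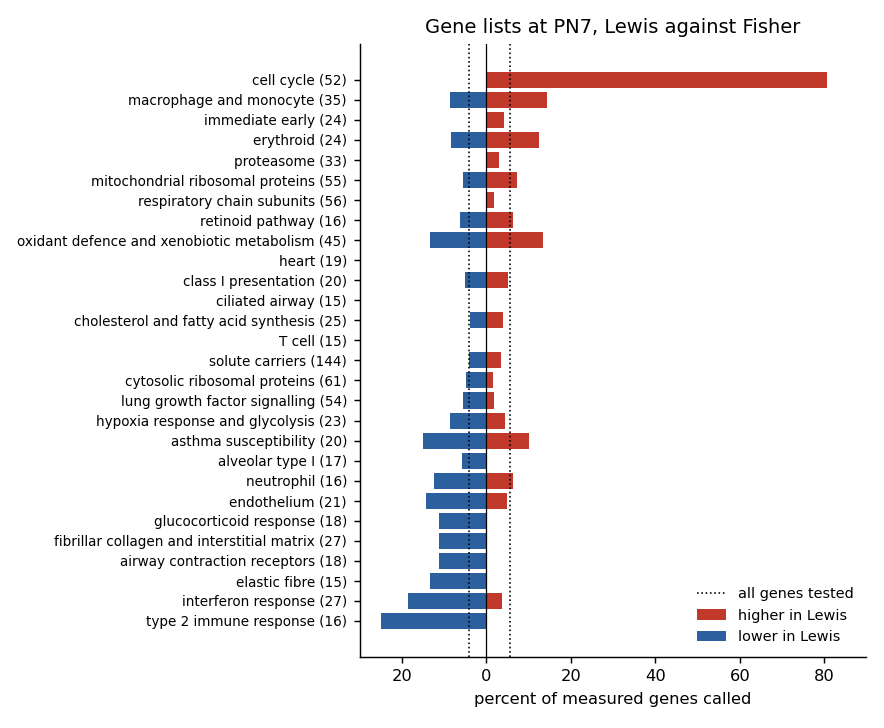
Percent of the measured genes of each list with at least 15 measured (number in brackets) that were called higher (red, right of 0) or lower (blue, left of 0) in Lewis at PN7, at a limma adjusted p under 0.05. Dotted lines give the shares of all 8063 genes, 5.48% higher and 4.23% lower, and the cell cycle list with 42 of 52 higher stands far to the right of the others. The lists were chosen with earlier results of these data known.

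Transporter, metabolic and response genes also moved singly. Of 144 solute carriers 5 were higher and 6 lower. Slc3a1, a subunit of an amino acid transporter, was 1.07 higher (SE 0.07, adjusted p = 2.57e-12), and Slc6a4, the serotonin transporter of lung endothelium and platelets, was -0.84 (SE 0.21, adjusted p = 0.00838). The phosphate transporter gene Slc20a2 was 0.50 higher at PN7 and -0.30 and -0.16 at PN1 and PN14 (adjusted p of the departure = 0.00559). Of 23 genes of the hypoxia response and glycolysis 1 was higher, Hif1a, the oxygen-regulated transcription factor (0.31), and 2 were lower, Bnip3 and the peptide hormone gene Adm (-0.23). Of 25 genes of cholesterol and fatty acid synthesis 1 was higher, the regulator Srebf2 (0.37), and 1 lower, the sterol isomerase gene Ebp (-0.37). Nnat, the maternally imprinted neuronatin gene, was higher on both of its probes, by 0.48 and 0.45. Slc20a2, Hif1a, Adm and Ebp lost their calls under median scaling, and leaving out Fisher replicate 4 ended that of Slc20a2 and leaving out Lewis replicate 3 or Fisher replicate 1 that of Ebp. In the deposited log2 values the Slc6a4 call ended (adjusted p = 0.0956), and under scaling to the median of the detected probes that of Srebf2.

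Lists of tissues and cells that a dissected lung can carry gave the values to be set beside these results. Of 19 heart, 13 skeletal muscle, 11 fat, 15 T cell, 5 B cell and 5 liver genes 0 were called by limma, with 0, 0, 0, 1, 0 and 2 at an unadjusted p under 0.05. Of 4 thymus genes 1 was lower, Cd1d1 (-0.20), which lost its call under 16 of the 20 alternative settings. The heart mean ranged from 8.95 to 9.89 over the Lewis arrays and from 8.65 to 9.8 over the Fisher arrays. In all, 15 of the 44 measured lists had 0 called genes, and 8 of their 144 genes had an unadjusted p under 0.05, beside 846 higher and 810 lower of all 8063 genes. Erythroid genes had 3 of 24 higher and 2 lower, and the array means were 11 to 11.31 in Lewis and 10.87 to 11.17 in Fisher. Lgals5, a rat galectin of red cell precursors, read 13.42, 13.71, 13.66 and 13.26 on the Lewis arrays and 11.16, 10.41, 11.61 and 10.58 on the Fisher arrays. Its values did not overlap, and it was 2.57 higher (SE 0.29, 5.95-fold), as at PN1 (2.85) and PN14 (2.76). The erythroid genes Hemgn and Car1 were 1.01 and 0.69 higher and were highest on Lewis replicate 3 (10.94 and 9.69), and the red cell membrane gene Epb41, whose values overlapped, was -0.54. Without Lewis replicate 3 the Hemgn call ended, as it did without Lewis replicate 2 or Fisher replicate 2 or 4, and that of Epb41 ended without Lewis replicate 1 or 4 or Fisher replicate 1 or 3. Median scaling ended both. The Car1 call ended in the deposited log2 values, in the fit of the 8 arrays alone and under scaling to the median of the detected probes (adjusted p between 0.0558 and 0.0949). Haemoglobin itself (Hbb) was near the top of the signal range on every array and differed by 0.01 (SE 0.03). Red cell precursors divide, and whether they had a part in the cell cycle result was not tested.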

How the data were processed

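Total RNA of whole lung, extracted with Trizol and treated with DNase per the labels' protocols, was amplified to biotin-labelled cRNA with an Ambion MessageAmp kit. Per the file headers, the deposited table holds a raw signal (intensity) that was not normalised, a detection p-value and a bead number for 22226 probes. The authors also deposited log2 values, made with lumi per the submitters' processing notes, which have the same quantiles on every array and rank within an array as the raw signal. They served as an alternative. A further 36 per-sample columns were not used.

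The neqc function of limma 3.58.1 (R 4.3.3, tables read with version 1.17.8 of data.table) turned intensities into log2 values: it fits a normexp background from the detection p-values, adds an offset of 16 and normalises by quantiles. The plots come from matplotlib 3.10.9. The test took in 11339 probes, those detected (p under 0.01) on 3 or more of the 36 arrays, and left out 10887. The limma model had a mean for each strain and age over all 36 arrays, so that the groups share an estimate of the spread (28.6 degrees of freedom), and p-values were 2-sided and Benjamini-Hochberg adjusted over all tested probes. The threshold was 0.05. Symbols came from the platform annotation (13192 probes with 1 gene, 9034 unnamed, 0 with several), and 13151 were matched to RefSeq genes. A gene on a list was represented by its tested probe of highest mean. The steps were tested on simulated data. The number of arrays limits the precision.

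Named genes were the 12 highest and 12 lowest called named probes detected on all 8 arrays whose values did not overlap, the 6 highest and 6 lowest detected in 1 strain alone, up to 4 called genes of each list, the 8 smallest adjusted p-values for a departure of PN7 from the other ages, and 16 genes set by name. Of those, Acta2 and Top2a had no named probe. The members and the 46 lists, of which 44 were measured, were chosen with earlier results of these data known. Promoters were read from RefSeq (GRCr8), 200 bases before each start. Other background corrections, scalings, filters, sample sets and blocks and the omission of each array were tried as alternatives.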

Additional observations from a re-analysis of the deposited data

Results flagged for a closer look

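The strain difference at PN7 departed from the mean of the PN1 and PN14 differences in 32 named genes, upward in 19 and downward in 13, by limma with Benjamini-Hochberg adjustment over all tested probes. The values that follow are these departures on the log2 scale. Among listed cell cycle genes they were Ccna2 (1.82, adjusted p = 4.48e-06), Rrm2 (1.73, adjusted p = 0.00301), Ttk (1.32, adjusted p = 2.3e-06), Kif22 (1.71, adjusted p = 4.43e-06), Ect2 (1.35, adjusted p = 4.99e-07), Ndc80 (0.90, adjusted p = 1.81e-06), Hmmr (1.13, adjusted p = 2.06e-06), Racgap1 (0.80, adjusted p = 2.3e-06) and Mki67 (0.43, adjusted p = 1.92e-05). Genes of cell division or the cytoskeleton outside that list were Kif15 (0.78, adjusted p = 4.99e-07), Iqgap3 (0.64, adjusted p = 4.99e-07), Ncapd3 (0.65, adjusted p = 1.09e-06) and Cenpt (0.81, adjusted p = 1.33e-06). The others above the mean of the other ages were Anxa3 (0.73, adjusted p = 0.00491), Crabp1 (1.31, adjusted p = 0.00104), Timp1 (0.79, adjusted p = 0.00233), Mx2 (0.36, adjusted p = 0.0228), Psmc1 (0.21, adjusted p = 0.00594) and Slc20a2 (0.73, adjusted p = 0.00559). Below it, genes of epithelium, endothelium and matrix were Pigr (-0.84, adjusted p = 0.000125), Ace (-0.79, adjusted p = 0.0395), Tek (-0.64, adjusted p = 0.00232), P4ha1 (-0.61, adjusted p = 0.000775) and Bmp4 (-0.65, adjusted p = 0.0228). Immune and receptor genes below it were Cd177 (-1.32, adjusted p = 0.00017), Il33 (-1.08, adjusted p = 0.00491), Retnla (-1.73, adjusted p = 0.00172) and Adora2a (-0.82, adjusted p = 0.0416). Metabolic and chaperone genes below it were Sult1a1 (-0.86, adjusted p = 0.0222), Aox1 (-0.74, adjusted p = 0.00011), Gstt2 (-0.54, adjusted p = 0.0369) and Hspa5 (-0.81, adjusted p = 8.76e-05). Timp1 and Mx2 departed upward although they were lower in Lewis at PN7, since their mean difference at the other ages was larger. A departure from the mean can pass through a single other age: Mx2 stood at -0.29 at PN7, -0.23 at PN1 and -1.06 at PN14. What produced the departures was not tested.

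Of 236 sets of 4 arrays examined for the named genes, 17 had an array that stood apart from the other 3 of its group by Dixon's criterion on the gap to the nearest of them, where chance gives about 1 in 20. Fisher replicate 4 was that array in 5 sets, Fisher replicate 1 and Lewis replicate 4 in 3 each, Lewis replicates 1 and 3 and Fisher replicate 2 in 2 each, and Lewis replicate 2 and Fisher replicate 3 in 0. Among the Lewis arrays (log2 signal), Washc3 read 11.33 on Lewis replicate 3 against 11.69 to 11.76 on the others, Crabp1 read 10.62 on Lewis replicate 3 against 10.94 to 10.95 on the others and Plcxd3 read 8.08 on Lewis replicate 4 against 8.11 to 8.12 on the others. Txnrd1 read 9.66 on Lewis replicate 1 against 9.59 on the others, Iqgap3 read 8.48 on Lewis replicate 4 against 8.72 to 8.76 on the others and Racgap1 read 8.78 on Lewis replicate 4 against 9.06 to 9.10 on the others. Scgb1a1 read 16.01 on Lewis replicate 1 against 16.04 on the others. Among the Fisher arrays, Nos3 read 9.80 on Fisher replicate 2 against 10.02 to 10.04 on the others, Vnn3 read 8.13 on Fisher replicate 4 against 8.10 on the others and Gstt1 read 8.83 on Fisher replicate 1 against 8.74 to 8.76 on the others. Tek read 9.98 on Fisher replicate 4 against 10.19 to 10.21 on the others, Plod1 read 11.80 on Fisher replicate 1 against 11.67 to 11.69 on the others and Hspa5 read 14.98 on Fisher replicate 2 against 14.65 to 14.69 on the others. Ifitm1 read 9.96 on Fisher replicate 1 against 10.12 to 10.15 on the others, Nrg1 read 8.32 on Fisher replicate 4 against 8.13 to 8.14 on the others and Mrpl17 read 8.43 on Fisher replicate 4 against 8.25 to 8.26 on the others. Scgb1a1 read 15.93 on Fisher replicate 4 against 16.03 to 16.04 on the others. In each of these sets apart from those of Scgb1a1, which did not pass, the 4 Lewis and 4 Fisher values did not overlap. Lack of overlap was a condition for choosing Washc3, Crabp1 and Nos3. It held for 981 of the 1134 called probes, against 16.3% of all tested probes, and a call from the same arrays favours it.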

How the results depend on the processing

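The counts at PN7 depended most on the scaling between arrays. Median scaling gave 310 calls (160 higher, 150 lower in Lewis), 18 cell cycle genes higher and 168 departing probes. Scaling to the median of the probes detected on all arrays gave 462 (228 and 234), 27 cell cycle genes higher, 30 of the 52 departing upward and 175 departing probes, and it moved the median of all probes from -0.002 to 0.037. Of the 1134 calls, 310 kept their call and sign under the first and 460 under the second, and 4 of the 1134 changed sign under the second without being named genes. Without the Brown Norway arrays labelled PN1 replicate 5 and PN14 replicate 3 there were 1516 calls and 833 departing probes. Other settings gave between 894 calls (probes detected on all 8 arrays) and 1283 (the slide of PN7 alone), with 1163 without background correction, 1132 with an offset of 50, 1107 in the deposited log2 values, 1084 without a filter, 1026 in a fit of the 8 arrays and 1069 with slide as a block. Leaving out 1 array at a time gave 889 to 1118 calls, 510 to 623 higher and 379 to 508 lower, 34 to 47 cell cycle genes higher and 0 lower, 385 to 564 departing probes, and 39 to 48 cell cycle genes departing upward. The lowest number of departing probes came without Fisher replicate 4. Replicate numbers did not pair the arrays: deviations of same-numbered arrays correlated at 0.23, -0.19, -0.01 and -0.02, and the fit with the replicate number as a block gave 1235 calls. Of the called named genes 0 changed sign under any setting, whereas the uncalled Hbb, Scgb1a1, Sftpc, Sftpb and Eln, with differences near 0, did under some. Calls of named genes ended for 46 under median scaling, 35 under the detected-probe scaling, 15 in the fit of the 8 arrays and at most 13 under any other. Beyond the losses given with the results, the detected-probe scaling ended the calls of Gstt1, Zpbp2, Pigr, Rpl17, Egfl7, Hemgn, Hif1a, Adm, Mx2, Bmp4, Shh, Nrg1, Psmc1, Uqcrc2, Cyp26a1, Slc20a2, Iqgap3, Cenpt and Mki67. The fit of the 8 arrays ended those of Ebp, Egfl7, Epb41, Plod1, Hif1a, Shh, Nrg1, Psmc1 and Mki67, the deposited log2 values those of Hemgn, Fcgr3a and Psmc1, the slide of PN7 alone those of Ebp, Epb41 and Psmc1, slide as a block those of Egfl7, Epb41 and Psmc1, and no filter those of Ltbp1 and Egfl7. The cause of these changes was not tested. The detected-probe scaling and the omission of the Brown Norway arrays were chosen after seeing the data. Probes near background give small log2 differences here because of the offset, and in the deposited log2 values Mrpl18 stood at -6.55 and Odc1 at 4.73.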

Other observations

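Further members of the lists passed the test at PN7 without being among the genes chosen by the naming rule, and are named here after their values were seen. Unlike the genes of that rule, they were not followed singly under the alternative settings. Whether their calls hold under other scalings or without single arrays was therefore not tested. In the oxidant defence list, Ephx1, the microsomal epoxide hydrolase, was higher in Lewis (0.45, adjusted p = 0.0291), as were Gclc, the catalytic subunit of glutathione synthesis (0.29, adjusted p = 0.0114), and Prdx1, a peroxiredoxin (0.28, adjusted p = 1.61e-06). Together with the called Txnrd1, Gstm1 and Gstt1 these make up the 6 higher members of that list. Its other lower members were Gsta4, a glutathione transferase for lipid peroxidation products (-0.38, adjusted p = 7.09e-05), Mgst1, a microsomal glutathione transferase (-0.43, adjusted p = 0.0169), and Sod2, the mitochondrial superoxide dismutase (-0.54, adjusted p = 0.0132).

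In the macrophage list, Cd68, a lysosomal glycoprotein, was higher (0.59, adjusted p = 0.00385), as was Cybb, the catalytic subunit of the phagocyte oxidase (0.31, adjusted p = 0.00265), and Itgal, an integrin of leukocytes (0.15, adjusted p = 0.0209), whereas Siglec5 was slightly lower near background (-0.08, adjusted p = 0.00462). Among interferon response genes, Dhx58 and Ifit2 were lower near background (-0.09, adjusted p = 0.0352 and -0.12, adjusted p = 0.0337). Car2, the carbonic anhydrase of red cells and other cells, was lower (-0.36, adjusted p = 0.0382), in the opposite direction to Car1.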
